A study of Drosophila melanogaster with 2 samples.

Results

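The cytosolic ribosomal protein genes of Drosophila melanogaster were examined for binding of the zinc finger protein DREF. They were taken as the protein-coding genes of the Ensembl BDGP6 annotation whose symbol begins with RpL, RpS or RpLP followed by a digit, together with sta, the small subunit protein SA. RpS2, also known as string of pearls (sop), entered under its RpS symbol. This gave 93 of the 13945 protein-coding genes on the 6 chromosome arms, 54 named for the large subunit and 39 for the small subunit. The assay was ChIP-seq, which sequences the DNA that comes down with a protein, in whole embryos aged 0 to 24 hours of the strain Dref-GFP. This strain carries a DREF-eGFP fusion as a transgene, and an antibody against GFP was used on sonicated chromatin. The single group holds 2 samples that the labels number as biological replicates, with no second condition, so no value here compares treatments. Whole embryos mix all cell types, so a peak does not show in which cells the protein was bound. The tagged protein was mapped, and the untagged protein was not measured separately.

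Ribosomal protein genes encode the protein part of the small subunit, which reads the messenger RNA, and of the large subunit, which joins amino acids. In flies, loss of a single copy of many of them gives the Minute phenotype of slow development and short bristles. Their promoters mostly lack a TATA box, and many start transcription in a polypyrimidine stretch, the TCT initiator, in place of the usual initiator. DREF binds the palindrome TATCGATA, the DNA replication-related element (DRE), found at promoters of genes used in growth and replication. DREF and M1BP, the protein that binds the promoter element Motif 1, have both been reported at promoters of fly ribosomal protein genes.

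Bound here means that the conservative peak list, made from both replicates, has a summit within 250 bp of any annotated start of the gene. Of the 93 ribosomal protein genes, 67 were bound (72.0%), against 30.6% of all protein-coding genes under the same rule. The large subunit had 39 of 54 genes bound (72.2%) and the small subunit 28 of 39 (71.8%). The 67 bound genes were assigned 67 different peaks.

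The promoters printed here belong to strongly bound members and were chosen because they hold an exact DRE. A peak does not show which bases DREF contacted. The windows below run from -80 to +30 bp of the nearest annotated start, 5′ to 3′ on the gene's strand, with the DRE in capitals, in the Release 6 (dm6) sequence of RefSeq. They are chr3R:20850436-20850546 (+ strand) for RpS30, chr2L:12056246-12056356 (+ strand) for RpL7-like, chr3L:13023272-13023382 (+ strand) for RpS12, chrX:15139337-15139447 (- strand) for RpL37-1, chr2L:8042879-8042989 (- strand) for RpL36A and chr3R:9777962-9778072 (+ strand) for RpS29. The first 4 hold the DRE before the start, and the last 2 hold it just after the start.
RpS30: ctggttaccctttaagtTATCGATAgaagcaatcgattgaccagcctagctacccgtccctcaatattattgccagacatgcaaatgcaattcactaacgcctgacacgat
RpL7-like: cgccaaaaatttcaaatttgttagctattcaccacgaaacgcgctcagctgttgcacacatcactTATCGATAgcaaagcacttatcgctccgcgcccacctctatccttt
RpS12: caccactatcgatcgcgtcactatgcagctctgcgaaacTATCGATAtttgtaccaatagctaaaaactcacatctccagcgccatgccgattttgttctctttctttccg
RpL37-1: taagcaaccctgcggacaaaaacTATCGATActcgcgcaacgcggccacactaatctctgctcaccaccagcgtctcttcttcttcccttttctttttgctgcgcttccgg
RpL36A: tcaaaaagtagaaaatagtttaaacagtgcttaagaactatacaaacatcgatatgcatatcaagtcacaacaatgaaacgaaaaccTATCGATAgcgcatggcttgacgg
RpS29: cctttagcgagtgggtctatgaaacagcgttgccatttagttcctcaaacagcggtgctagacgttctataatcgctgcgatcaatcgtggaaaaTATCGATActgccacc

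RpS30, a protein near the channel where messenger RNA enters the small subunit, had the highest signal of all members. Signal is the authors' own measure of peak strength, and it has no stated scale for depth. At RpS30 it was 6130 in the conservative list, 2267 in the list of replicate 1 and 3882 in the list of replicate 2. The peak, chr3R:20850308-20850721, ranked 18 among all peaks on the arms and had its summit 1 bp from the start. The center of the DRE printed above lies at -59 bp from that start.

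Small subunit proteins filled several of the next places. RpS28a and RpS28b are copies of a protein of the mRNA exit side, and their signals were 4339 and 3666. RpS28a had 1606 in replicate 1 and 2749 in replicate 2, and RpS28b had 1576 and 2104. RpS29, a protein of the head, had 4112, with 1492 in replicate 1 and 2639 in replicate 2. RpS2, which like RpS30 lines the mRNA entry, had 3478, with 1351 in replicate 1 and 2148 in replicate 2. All of these genes were higher in the list of replicate 2 than in that of replicate 1. RpS3, the remaining protein of the entry channel named here, had no conservative peak at its start.

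On the large subunit, the gene of the very short protein RpL41 had the highest signal, 4826, with 1867 in replicate 1 and 2993 in replicate 2. The summit, at -93 bp, lay nearer to the start of NaCP60E, a neighbouring gene transcribed the other way. RpL7, a structural protein, had 4285, with 1612 and 2687. RpL36A had 3264, with 1143 and 2140. RpLP0-like had 3242, with 1222 and 2039. The yeast relative of RpLP0-like (Mrt4) is an assembly factor that leaves the ribosome before it works, so this gene belongs to the set by its symbol. RpL19, which forms part of a bridge between the subunits, completed the 10 strongest members at 2966, with 1063 in replicate 1 and 1913 in replicate 2.

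Across the bound members the signal spanned 47.8 to 6130, with a median of 1095 and quartiles of 362 and 2212. The median of all bound protein-coding genes was 908, with quartiles of 228 and 1935. Large subunit genes had a median of 852 (354 to 1663) and small subunit genes 1192 (414 to 2423), so their quartile ranges overlapped over most of their length. Signals of 1000 or more were found at 34 of the 67 bound members (50.7%), against 47.6% of all bound genes. Among the strongest 10% of the peak list were 13 members (19.4%), against 14.8% of all bound genes.

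Members can be ordered by their place in the ribosome. Of the stalk that recruits elongation factors, RpLP0 had 720, RpLP1 had 107 and RpLP2 was not called, and RpL12 at the base of the stalk had 1118. Of the proteins that line the exit tunnel, RpL4 had 156, RpL17 had 375 and RpL39 had 706. Of the proteins that carry the 5S RNA, RpL11 had 329 and RpL5 was not called. The ubiquitin fusion genes RpS27A and RpL40 had 435 and 152. RpS6, the protein phosphorylated downstream of TOR, had 1351. These groups were chosen after the values were seen, to order the members by role.

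The weakest called members were RpS20 at 47.8, RpS26 at 103, RpLP1 at 107, RpS14a at 118 and RpL7A at 119. RpS20 and RpS26 were the 2 members whose peak had a deposited q-value above 0.05. At RpS20, a protein of the head, replicate 1 had a ranked signal of 33.4 and no replicate 2 summit lay within 100 bp. At RpS26, on the mRNA exit side, replicate 1 had 63.1 and replicate 2 had 51.7, and neither replicate's thresholded list held that peak. At RpLP1, replicate 1 had 67.7 and replicate 2 had 48.4. At RpL7A, replicate 1 had 67.3 and replicate 2 had 49.7. Unlike the strong peaks, those of RpS26, RpLP1 and RpL7A were lower in replicate 2 than in replicate 1.

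The members not described elsewhere filled the middle of the range. Signals of 1000 or more were found at RpS7 (1783), RpL14 (1468), RpL23 (1447), RpS25 (1425), RpL37A (1349), RpL27 (1346), sta (1114) and RpL28 (1095). RpS7, RpS25, RpL27 and RpL28 among them held an exact DRE near the summit. Lower signals were found at RpL27A (563), RpL35 (545), RpS27 (478), RpS4 (477), RpL8 (373), RpS16 (350), RpS18 (336), RpL31 (335) and RpS21 (319). RpL29, RpS23 and RpL3, the last a protein next to the peptidyl transferase centre, had 190, 187 and 182. None of the 12 genes in these lower groups had an exact DRE within 100 bp of the summit.

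**Figure D1:**
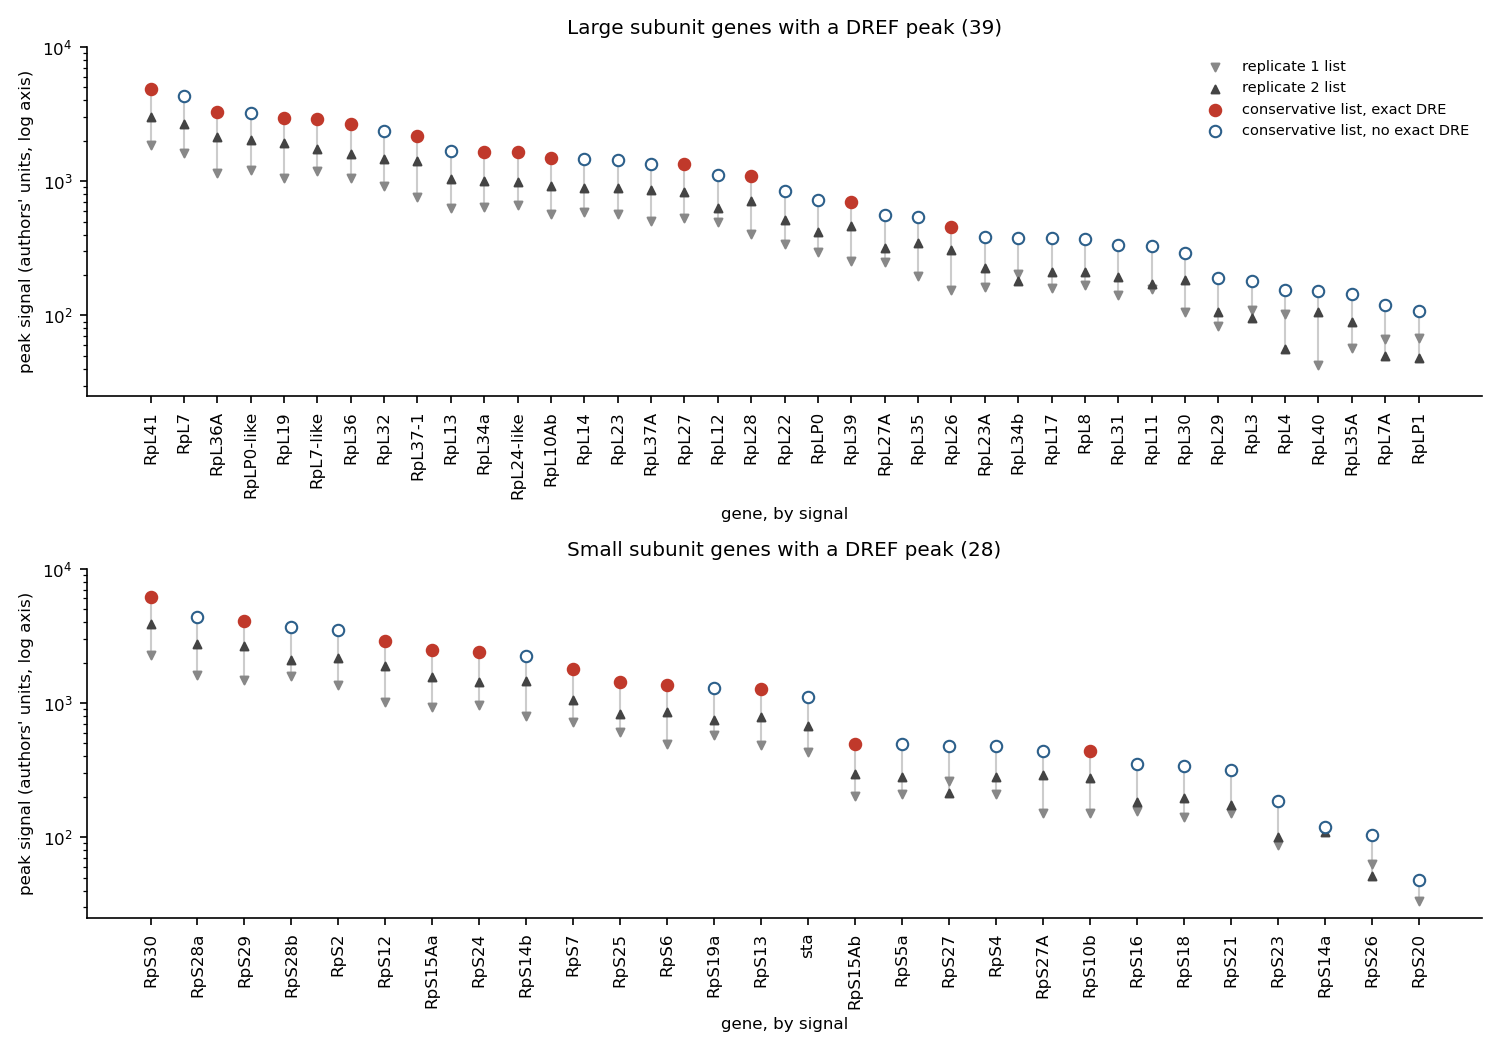
DREF peak signal at each bound large subunit gene (39, upper panel) and small subunit gene (28, lower panel), in the authors' units on a log axis, ordered by signal. Large points are the conservative list, filled where an exact DRE lies within 100 bp of the summit, and small triangles are the lists of replicates 1 and 2. Filled points gather at the left of both panels, and 20 of the 34 members at or above a signal of 1000 had an exact DRE.

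The next comparison asked how the DRE relates to the signal. An exact TATCGATA lay within 100 bp of the summit at 24 of the 67 bound members (35.8%), against 26.7% of all bound genes. The share was 33.3% for large subunit genes (13) and 39.3% for small subunit genes (11). With 1 mismatch allowed, 38 members had a match (56.7%), against 57.6% of all bound genes. The inner palindrome ATCGAT was present at 33 members (49.3%), against 53.4%. A palindrome of the same bases in another order, TACTAGTA, was present at 0 members, and at 0.140% of all bound genes.

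Members with an exact DRE had a median signal of 1717 (quartiles 1327 and 2892), and those without had 435 (241 and 1324), a log2 difference of 1.98. The quartile ranges only just failed to meet, at 1324 and 1327. Over all bound genes the medians were 1696 and 560, a log2 difference of 1.60. Of the 34 members at or above 1000, 20 had an exact DRE (58.8%), against 42.8% of all bound genes at or above 1000. Of the 33 members below 1000, 4 had one (12.1%), against 12.2%. The Spearman correlation of DRE number with signal was 0.497 over the 67 bound members and 0.386 over all bound genes. These are descriptions across genes of the same libraries, and genes are not replicates.

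The 24 members with an exact DRE ranged from 435 at RpS10b to 6130 at RpS30. After RpS30, RpL41, RpS29, RpL36A and RpL19, the strongest were RpL7-like at 2916, RpS12 at 2884, RpL36 at 2662, RpS15Aa at 2490 and RpS24 at 2401. RpS12, needed in flies for the competition between Minute and normal cells, had 1021 in replicate 1 and 1871 in replicate 2. RpS24 held 2 DREs, and each of the other 23 held 1. The 4 members below 1000 that had a DRE were RpL39, RpS15Ab, RpL26 and RpS10b.

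An exact DRE was absent near the summit of 14 members at or above 1000. A match with 1 mismatch was present at 11 of these, among them RpS28b, RpS2, RpLP0-like, RpL32 and RpL13. RpS28a, RpL7 and RpS14b had neither. The sequences below show members of this kind, all from the same build and strand convention as above. RpS28b, chrX:9554543-9554653 (+ strand), covers -80 to +30 bp with the inner palindrome in capitals. RpL13, chr2L:9967166-9967276 (+ strand), covers -55 to +55 bp of the summit with the inner palindrome in capitals. RpL7, chr2L:10200924-10201034 (+ strand), covers -80 to +30 bp with Motif 1 in capitals, here on the opposite strand to the gene (GGTCACACT read from the other strand).
RpS28b: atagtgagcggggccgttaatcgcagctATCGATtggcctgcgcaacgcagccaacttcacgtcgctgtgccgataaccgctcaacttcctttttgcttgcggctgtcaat
RpL13: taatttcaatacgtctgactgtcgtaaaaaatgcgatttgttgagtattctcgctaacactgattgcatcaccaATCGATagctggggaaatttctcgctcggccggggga
RpL7: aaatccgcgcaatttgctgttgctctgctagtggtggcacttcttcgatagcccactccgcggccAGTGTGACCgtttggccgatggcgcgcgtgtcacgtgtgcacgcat

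RpL13 and Dref, the gene of DREF itself, share the second of these windows. They are transcribed away from each other, and the same peak was called for both, with a signal of 1674, 636 in replicate 1 and 1035 in replicate 2. Its summit lay 92 bp from the RpL13 start and 8 bp from that of Dref. Motif 1 lay within 100 bp of the summit at 7 bound members (10.4%), against 9.43% of all bound genes.

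Summits sat just upstream of the starts. The median offset from the nearest start was -43 bp (quartiles -62.5 and -13), against -39 bp over all bound genes, and 59 of 67 summits lay upstream (88.1%), against 89.7%. Within 100 bp of a start were 62 summits (92.5%), against 82.1% of all bound genes. The other 5 belonged to RpL23A at -103 bp, RpS28a at -151 bp, RpS13 at -167 bp, RpL34a at -176 bp and RpS14a at -211 bp. All of these but RpL23A lay nearer to the start of a neighbouring gene transcribed the other way.

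At the 24 members counted as having a DRE, it lies within 100 bp of the summit by definition. Its center lay a median of 14.5 bp from the summit, against 17 bp over all bound genes with such a DRE. The farthest was 58 bp away, at RpS30, against 84 bp over those genes. Measured from the main start, the start that most transcripts of the gene share, the median DRE position was -55 bp (quartiles -75.25 and -37). The DRE lay within 100 bp upstream of that start at 19 of 24 members (79.2%), against 64.2% of bound genes with a DRE near the summit. Measured from the start nearest to the summit the share was also 79.2%, against 70.1%.

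**Figure D2:**
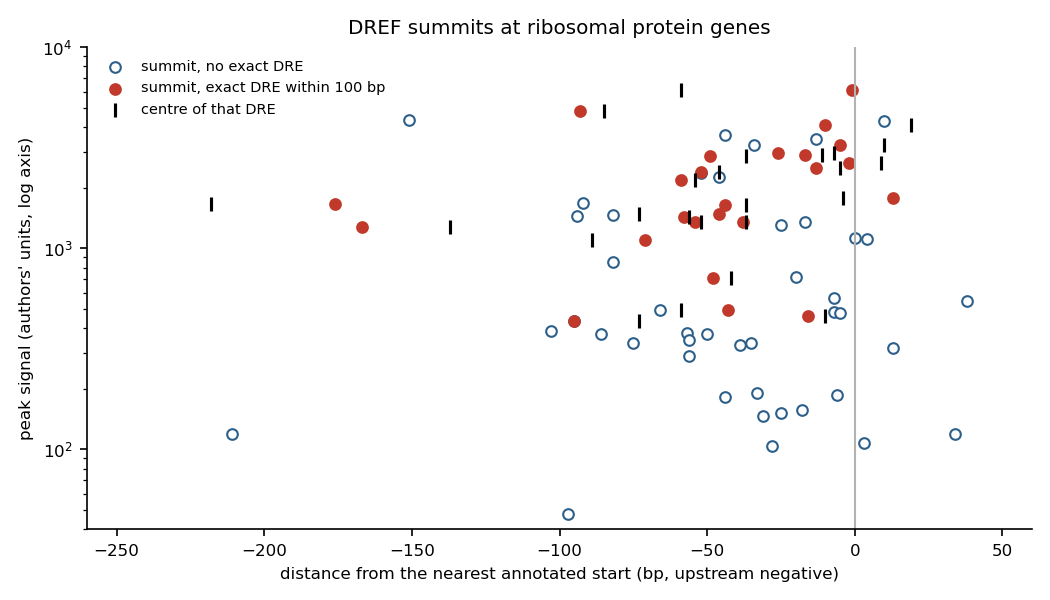
Peak signal (authors' units, log axis) of the 67 bound members against the distance of the summit from the nearest annotated start in bp, with upstream negative. Circles are summits, filled where an exact DRE lies within 100 bp, and vertical ticks mark the center of that DRE. Of the 67 summits 59 stand upstream of the start, and the filled circles lie mostly in the upper part.

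Duplicated genes gave comparisons between related copies. There were 13 families with 27 genes, of which 19 were bound (70.4%), and 48 of the 66 other members were bound (72.7%). The median signal of bound family genes was 1645, and that of the other bound members 554. Families were formed by symbol, so a -like gene in them need not encode a working copy of the ribosomal protein. The yeast relatives of RpLP0-like and RpL24-like are assembly factors. Whether RpL7-like and the other -like genes encode proteins of the ribosome was not examined. All copies were bound in 5 families, some in 8, and none in 0. Around the starts, the longest exact run that copies shared was 8 to 9 bp upstream, and downstream it reached 25 bp, between RpS15Aa and RpS15Ab.

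In the 5 families bound in full, the ratio of the stronger to the weaker copy ran from 1.47 to 19.0. RpS14a and RpS14b stand in tandem on the X chromosome and encode the same platform protein. RpS14b had 2254, with 796 in replicate 1 and 1466 in replicate 2, and RpS14a had 118, so that RpS14b was 19.0 times higher. An exact DRE lay at -60 bp from the RpS14a start, 151 bp from its summit, and the RpS14b promoter had none. The RpS14a summit, at -211 bp, was nearer to the start of Dhdds, and no replicate 1 summit lay within 100 bp of it. The replicate 1 peak that overlaps it had a signal of 491 with its summit 188 bp away, and RpS14a was no longer called with either replicate left out, so the ratio rests on a weak call. RpS15Aa had 2490 and RpS15Ab 493, a ratio of 5.05, and both held an exact DRE. The RpS15Ab summit was nearer to the start of Lsm10, a gene transcribed the other way. RpLP0-like had 3242 and RpLP0, the stalk base itself, had 720, a ratio of 4.51. RpL34a had 1652 and RpL34b 380, a ratio of 4.35, and the DRE was near the RpL34a summit only. That summit, at -176 bp, was nearer to the start of Trmt61, a gene transcribed the other way. RpL7 had 4285 and RpL7-like 2916, a ratio of 1.47, and here the weaker copy held the DRE. In both replicates the copy with the higher signal was the same in every one of these families except RpS14a and RpS14b, where replicate 1 had no matched value for RpS14a.

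In the other 8 families a copy had no conservative peak at its start. In the thresholded list made from both replicates RpL24 and RpS5b were called as well, which left 6 such families. RpL22 had 852 and RpL22-like, a copy enriched in testis, was not called. RpS5a had 493, and RpS5b, used in the ovary, had a ranked peak of 93.2 that was not in the conservative list. Likewise in the conservative list, RpS10b had 435 and RpS10a none. RpS19a had 1298 and RpS19b none, and RpL10Ab had 1484 and RpL10Aa none. RpL37-1 had 2169 and RpL37-2 none. RpL24 itself had a ranked peak of 102 outside that list, and RpL24-like, whose yeast relative Rlp24 is an assembly factor, had 1645. In the family of 3, RpS28a and RpS28b were close, with a ratio of 1.18, and RpS28-like was not called.

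**Figure D3:**
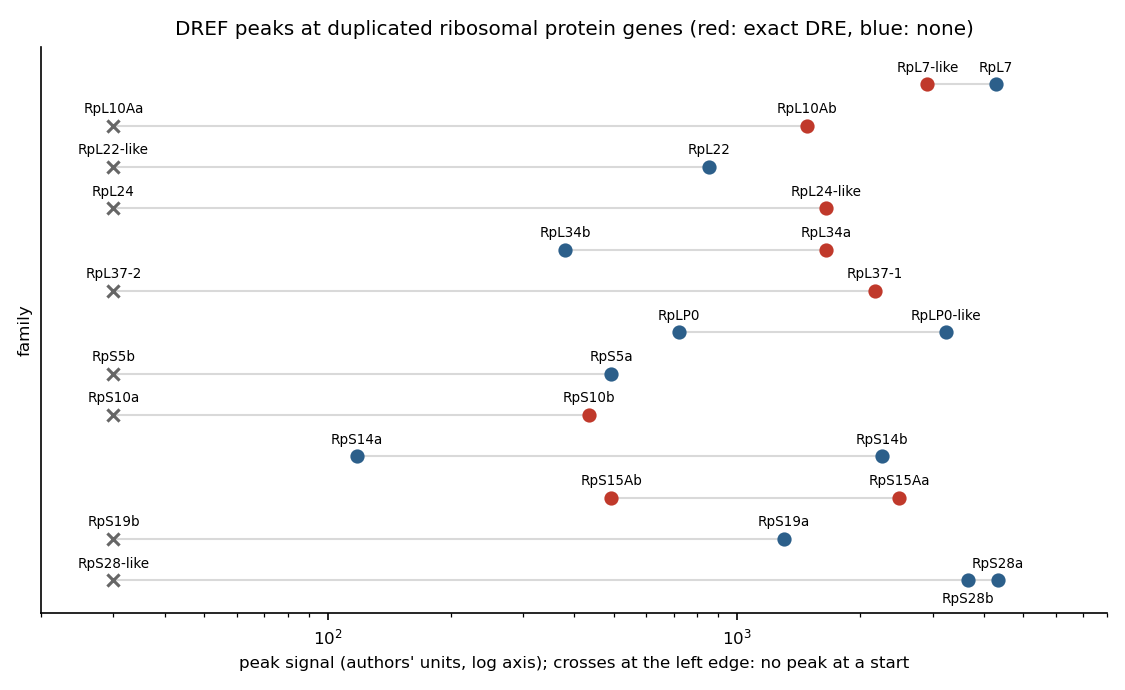
Peak signal (authors' units, log axis) of each copy in the 13 duplicated families, with a line joining the copies. Red points have an exact DRE near the summit, blue points have none, and crosses at the left edge mark copies without a conservative peak at a start. In 8 families at least 1 copy is a cross, and RpS14a and RpS14b stand farthest apart among copies with peaks.

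The 26 unbound members, 15 of the large subunit and 11 of the small subunit, were not all far from DREF. A summit lay 264 bp from the RpL6 start with a signal of 1812, and 282 bp from the RpLP2 start with 983, both just outside the limit. The RpL6 summit held a DRE, and the nearest start of another gene, CG1774, was 3536 bp away. A summit of 79.9 lay 350 bp from RpS19b and 32 bp from CG5854, and a summit of 226 lay 576 bp from RpS15. The RpL6 window, chr3R:31596413-31596523 (- strand), is centred on the summit and runs from -55 to +55 bp, with the DRE in capitals.
RpL6: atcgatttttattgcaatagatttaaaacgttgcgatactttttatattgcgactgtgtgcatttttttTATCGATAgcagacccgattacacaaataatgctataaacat

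For other unbound members the nearest conservative summit was farther off. It was 1458 bp away at RpS3A, 1630 bp at RpS9, 2238 bp at RpL13A, 2267 bp at RpS3, 2602 bp at RpL18 and 2770 bp at RpS5b. It was 5448 bp away at RpS28-like, 6919 bp at RpL9, 7736 bp at RpL24, 7981 bp at RpL21, 15638 bp at RpS10a, 19547 bp at RpL10Aa and 19766 bp at RpL22-like. It was 21202 bp away at RpL37-2, 25961 bp at RpL15, 32879 bp at RpL5, 78793 bp at RpL38 and 193274 bp at RpL10. The last 4 of these genes lie toward the centromere of their arm.

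Several unbound members had a peak that did not reach the conservative list. In the ranked list from both replicates, such peaks had signals of 102 at RpL24, 93.2 at RpS5b, 74.8 at RpL18, 70.2 at RpS15, 39.3 at RpS9 and 30.9 at RpS3. These fell within or below the range of the 5 weakest called members. A thresholded peak of a single replicate lay at the start of 4 unbound members. RpL38 had 693 in replicate 2, RpS3A had 274 in replicate 2, RpL10, which acts late when the subunits join, had 227 in replicate 2, and RpL24 had 82.4 in replicate 1. RpL38, RpS3A and RpL10 had no ranked peak of replicate 1 at the start.

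Binding of members was counted by chromosome arm. All 15 members on the X chromosome were bound, against 40.2% of all protein-coding genes of the X. The counts were 14 of 19 on 2L (73.7%, against 28.0% of all genes), 14 of 21 on 2R (66.7%, against 31.2%), 9 of 14 on 3L (64.3%, against 26.9%) and 15 of 23 on 3R (65.2%, against 29.5%). RpS3A, the 1 member on chromosome 4, was not bound, and 13.8% of all genes there were. The X also had the highest share over all genes. Median signals ran from 599 on 2R to 1425 on 3R, and the X stood between them at 1114. The weakest members on the X were RpS14a at 118 and RpL7A at 119.

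**Figure D4:**
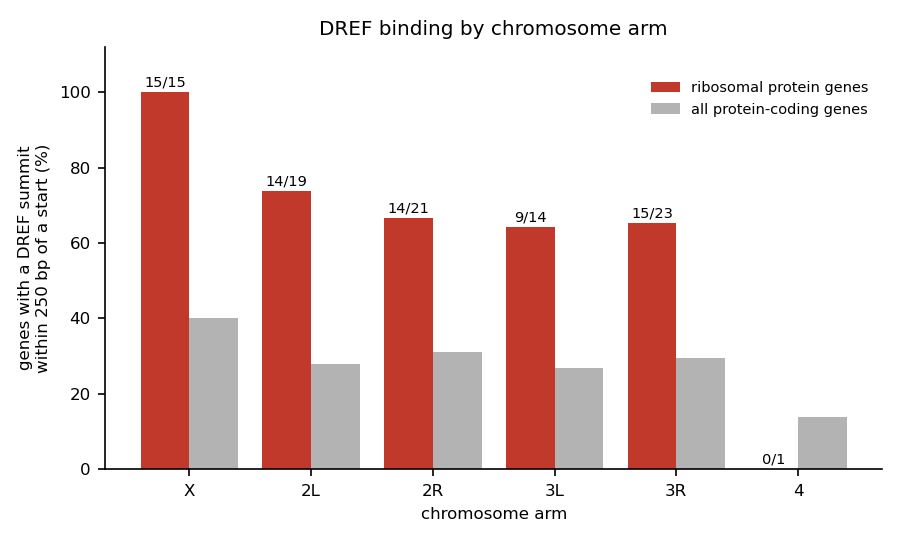
Share of ribosomal protein genes (red, with bound and total counts) and of all protein-coding genes (grey) with a DREF summit within 250 bp of a start, in percent, by chromosome arm. Red bars exceed grey bars on X, 2L, 2R, 3L and 3R, and the X bar reaches 100%.

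Members were also counted by their distance from the centromeric end of the arm. Within 6 Mb of that end of X, 2L, 2R, 3L or 3R, a limit set after the values were seen, 4 of 10 members were bound (40%), and 63 of 82 outside it (76.8%). For all protein-coding genes the shares were 28.4% and 31.0%. Other limits were not counted. The nearest members beyond this one, RpLP0 at 6.034 Mb, RpS5a at 6.394 Mb and RpS19a at 6.904 Mb, were bound, so the contrast depends on the limit. The count near the centromeric end was 2 of 10 in the list of replicate 1 alone (74.4% outside), where RpS10b and RpS26 were not called. It was 5 of 10 in the list of replicate 2 alone (70.7% outside), where RpS26 was not called and RpL10 and RpL38 were. The unbound members were RpL15, 0.843 Mb from the end of the assembled arm, RpL5 at 0.977 Mb, RpL21 at 1.266 Mb, RpL38 at 4.516 Mb, RpL10 at 5.015 Mb and RpL13A at 5.624 Mb. The bound members there were RpS10b, RpL30, RpS26 and RpL35A, with signals of 435, 292, 103 and 145, each below the median of the members. How well reads map in these regions was not tested.

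The replicates were compared at the members. In the list of replicate 1 alone 63 members were bound (67.7%), against 26.9% of all protein-coding genes. In the list of replicate 2 alone 64 were bound (68.8%), against 28.7%. Of the 67 member peaks, 61 had an overlapping peak in the thresholded list of each replicate (91.0%), against 82.1% of all 3595 conservative peaks at starts. The 6 exceptions were RpL4, RpL40, RpL7A, RpLP1, RpS20 and RpS26, the highest of which was RpL4 at 156. An overlap does not require that the summits lie close. RpS10b, at 435, had an overlapping peak but was not called in the list of replicate 1 alone. RpS14a also had overlapping peaks but was not called in the list of either replicate alone.

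Signals of 65 members could be matched between the replicates, with summits within 100 bp. Replicate 2 exceeded replicate 1 at 58 of them (89.2%), by a median factor of 1.51 (log2 0.60, quartiles 0.41 and 0.78). Over all conservative peaks at starts the factor was 1.58, with 91.4% higher in replicate 2. Of the 9 matched members with a conservative signal under 200, 4 were higher in replicate 2. The Spearman correlation between replicates was 0.979 over the 65 members, and these peaks had been selected by the authors for ranking alike. The depth of the libraries is unknown, so its part in the factor was not tested.

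Some members share a promoter region with another gene. A start of another protein-coding gene lay within 250 bp of the summit at 23 of the 67 bound members (34.3%), against 40.3% of all bound genes. At 21 members (31.3%, against 37.0%) that gene was transcribed in the opposite direction, and the summit was nearer to the member at 13 and to the partner at 8. Partners included Dref at RpL13, NaCP60E at RpL41, Ripalpha at RpL7, Axn at RpS28a and 14-3-3zeta at RpLP0-like. At these promoters the peak cannot be assigned to a single gene. Median signals were 1270 at the 21 divergent promoters and 779 at the other 46, and an exact DRE was present at 7 and 17 of them.

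Small nucleolar RNA (snoRNA) genes, which guide changes to ribosomal RNA, lay inside 29 members. Of these 22 were bound (75.9%), with a median signal of 528 and an exact DRE at 7. Of the 64 members without a snoRNA gene 45 were bound (70.3%), with a median of 1298 and a DRE at 17. Both shares stood near the 72.0% of all members, against 30.6% of all protein-coding genes. The median signal was lower in the snoRNA hosts, and the spread around these medians was not computed.

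Other promoter elements were sought from 250 bp before to 50 bp after the main start, on both strands unless said otherwise. The exact DRE was found in 38.8% of bound members, in 26.4% of all bound genes, in 7.69% of unbound members and in 9.24% of all protein-coding genes. RpL6, whose summit lay just outside the limit, was among the unbound members with a DRE. CGATA, the letters of the BEAF-32 insulator protein's site and a part of the DRE, was found in 82.1% of bound members, 75.6% of all bound genes, 50% of unbound members and 47.5% of all genes. Motif 1 was found in 11.9% of bound members, 10.2% of all bound genes, 7.69% of unbound members and 6.07% of all genes. The core promoter E-box CAGCTG was found in 10.4% of bound members, 24.3% of all bound genes and 17.8% of all genes. GAGAG was found in 19.4%, 23.0% and 30.3% of these groups, and the Zelda site CAGGTAG in 0 members, 1.29% of all bound genes and 1.69% of all genes. TATAAA, sought on the gene's strand from 40 to 15 bp upstream, was found at RpL39 alone among members, which is 1.49% of bound members, against 1.47% of all bound genes and 7.86% of all genes.

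Matches to the letters CTTTNTT, used here for the TCT initiator, were found at similar shares of bound and unbound members. A match did not have to begin at the start itself, and other polypyrimidine stretches were not counted. CTTTNTT, on the gene's strand and beginning within 20 bp of the main start, was found in 23 members (24.7%), 10 of the large and 13 of the small subunit, against 2.04% of all protein-coding genes and 2.55% of all bound genes. It was present in 25.4% of bound and 23.1% of unbound members. Of the 23 members 17 were bound (73.9%), at a median signal of 435. Of the 70 without such a match, which may still hold another polypyrimidine stretch, 50 were bound (71.4%), at a median of 1194. A DRE was also in the promoter of 8 of the 23. With matches up to 50 bp from the start the counts were 29 members (31.2%) and 5.21% of all genes. The windows below run from -25 to +34 bp of the main start with the match in capitals, at chrX:13337604-13337663 (- strand) for RpS15Aa, chrX:7934873-7934932 (+ strand) for RpS14b and chr3L:8600981-8601040 (+ strand) for RpL14.
RpS15Aa: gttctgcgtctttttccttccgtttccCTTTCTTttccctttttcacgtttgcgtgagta
RpS14b: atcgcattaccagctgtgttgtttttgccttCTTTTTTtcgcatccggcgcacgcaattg
RpL14: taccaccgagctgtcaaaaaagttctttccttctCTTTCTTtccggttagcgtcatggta

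**Figure D5:**
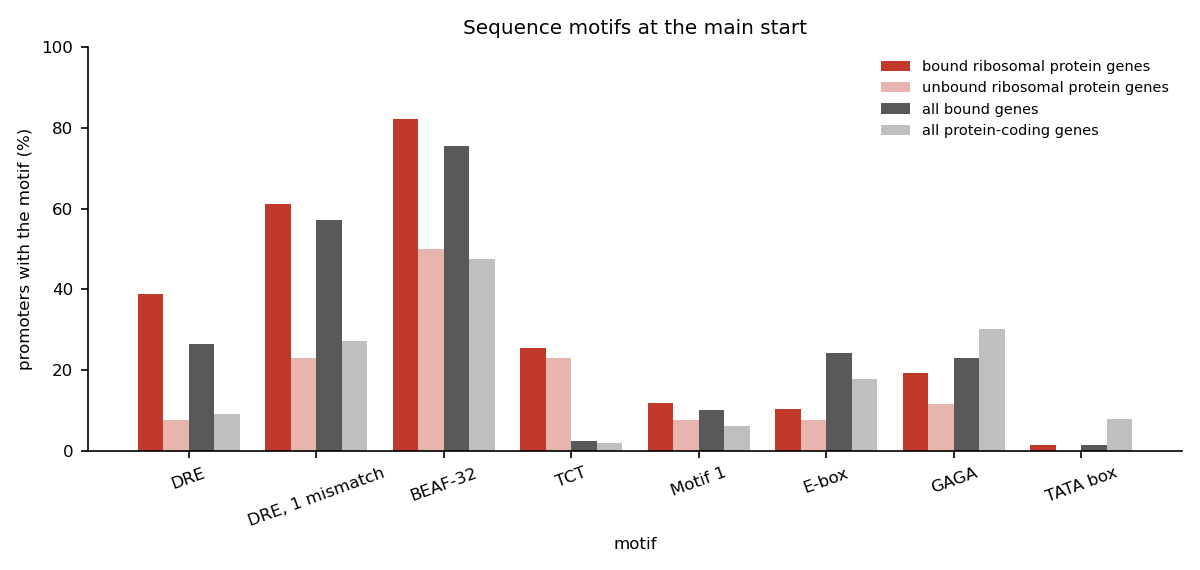
Percent of promoters (250 bp before to 50 bp after the main start) that hold each motif, in bound and unbound ribosomal protein genes, all bound genes and all protein-coding genes. The DRE bar of bound members, 38.8%, stands above those of the other groups. The TCT bars count matches to CTTTNTT beginning within 20 bp of the main start. Those of bound and unbound members, 25.4% and 23.1%, stand above those of all bound genes and all genes.

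Genes that work with the ribosome were counted by the same rule, under which 30.6% of all protein-coding genes were bound. Translation elongation and ribosome-bound factors had 9 of 12 genes bound (75%), with a median signal of 1187. The strongest were the release factor eRF1 at 2821, eEF1gamma at 2229 and the translocation factor eEF2 at 2101, and eEF1alpha2, eEF1beta and eEF1delta were not bound. Ribosome biogenesis genes had 18 of 25 bound (72.0%), with a median of 1022. The strongest were the helicase gene kz at 3693, the GTPase gene Ns3 at 3485 and eIF6, which keeps the subunits apart during assembly, at 3365, and Mys45A, NHP2 and Nnp-1 were among the unbound. These shares stood near that of the ribosomal protein genes.

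RNA polymerase I, which transcribes the large ribosomal RNAs, had 4 of 8 listed genes bound (50%), against 30.6% of all protein-coding genes. Among the bound were Polr1E at 5475, Polr1A at 1226 and Polr1D at 1101. Polr1C, Polr1F and Polr1H were among the unbound. Of 9 factors reported at ribosomal protein promoters, 4 were bound (44.4%), against the same 30.6%, and both lists are short. The bound factors were Tbp, the TATA-binding protein, at 2221, Dref at 1674, BEAF-32 at 662 and TfIIA-L at 130. M1BP, Max and Myc were among the unbound.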

How the data were processed

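DREF-eGFP was mapped by ChIP-seq in 2 biological replicates of whole embryos, per the labels. The authors deposited lists of peaks (dm6), which according to the accompanying notes derive from each replicate or from both and were ranked and thresholded by irreproducible discovery rate (IDR). Scores in the deposited lists (830 or more where thresholded) were taken to be scaled IDR values. The deposited signal is the authors' peak strength, and the deposited lists also hold the −log10 of a q-value, with a ceiling of 3.78. The sources used here do not give the aligner or peak caller, the depth is unknown, and a control experiment named in the labels was not analysed here. The conservative list held 5355 peaks, 5292 on the 6 arms, with a median signal of 302 there. The lists of replicates 1 and 2 held 3812 and 3990 peaks.

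Gene starts came from Ensembl release 115 and sequence from the RefSeq Release 6 assembly. Summits were assigned, motifs counted and figures drawn with Python 3.11.15, pandas 2.3.3, NumPy 2.4.6, SciPy 1.17.1 and matplotlib 3.10.9, and the assignment was checked on simulated summits. Members, gene lists and roles were chosen with earlier results of these data known. Named are every member by its call, with full values for the 10 strongest and 5 weakest bound members, the 10 strongest with an exact DRE, every duplicated family and the nearest summit of unbound members (a few are not reported here), and of related lists the 3 strongest and up to 3 of the first unbound by name. With 1 group no test was run, and the lists hold no expression values. Neighbouring genes can share a peak. Alternatives changed the distance, the list, the threshold, the starts and the motif match.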

Additional observations from a re-analysis of the deposited data

How the results depend on the processing

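Of 68 comparisons of a result with its value under an alternative, 63 stayed close to the reported value and 5 moved. Close was a wide band. Among counts, 7 families with every copy bound against 5, or 5 members near a centromeric end against 4, were called close. For median signals the band was 0.45 log2, the standard deviation of the medians of the replicates. The count of 63 therefore says little about how firm the results are. The median signal of bound members was 786 in the thresholded list made from both replicates, against 1095 in the conservative list, and each list has its own scale of signal. With 1 mismatch allowed, 38 bound members had a DRE near the summit, against 24 with the exact palindrome, which the looser match must raise. The number of bound members was 62 with summits within 100 bp, 71 within 500 bp, 70 in the thresholded list made from both replicates, 65 with q-values of 0.05 or less and 55 with signals at or above the list median, where all genes stood at 25.6%, 34.5%, 31.4%, 28.0% and 21.4%. Duplicated families with every copy bound numbered 3 with summits within 100 bp, against 5, and members bound near a centromeric end numbered 1 with signals at or above the list median, against 4. The number of bound members was 67 with the most upstream start only and 67 with peaks overlapping a start, where all genes stood at 29.0% and 27.8%. Leaving out a replicate gave 63 to 64 bound members, 38 to 39 of the large and 24 to 26 of the small subunit. All genes stood at 28.7% without replicate 1 and 26.9% without replicate 2. On the X chromosome 13 members were bound either way, where all genes of the X stood at 38.0% and 36.2%. Near a centromeric end 2 to 5 members were bound, 4 to 5 families had every copy bound, and 23 to 24 members had a DRE. RpS14a, RpS20 and RpS26 were lost with either replicate left out, and RpS14a, RpS28a, RpS13, RpL34a and RpL23A were lost at 100 bp. The alternatives for the X, the centromeric ends, the families and the wider TCT range were added after seeing the data. No paired analysis was possible because the study has a single group. Read depth is unknown, which limits every weak call.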
